A study of Mus musculus with 6 samples.

Results

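From the 51912 Ensembl mouse gene IDs counted, 8 genes were chosen by symbol: Rest, its corepressor scaffolds Rcor1, Rcor2 and Rcor3, the demethylase gene Kdm1a, and 3 genes best known from neurons, Syt11, Elavl4 and Magi2. They were proposed with the difference between the groups already known, so their levels and differences are given as a description with no test, and nothing is supported with them. RNA sequencing counts came from EL4, an established line grown from a mouse lymphoma of T lymphocytes, with the genotype WT in the labels of both groups. All libraries are from this 1 cultured line. The vehicle group, whose solvent the labels do not name, had 3 libraries, and the RGFP966 group had 3 libraries from cells given 10 µM of this inhibitor of the histone deacetylase HDAC3 for 24 h. Whether the libraries are independent cultures is not said in the labels, so errors and p-values measure only the spread between these libraries. The comparison asked which genes differ after the inhibitor.

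REST is a zinc finger repressor that binds a DNA element called RE1 beside many neuronal genes and keeps them silent outside the nervous system. One end of the protein recruits the SIN3 corepressors, and the other recruits CoREST proteins, the products of the Rcor genes. CoREST holds the histone demethylase LSD1, the product of Kdm1a, together with the deacetylases HDAC1 and HDAC2, while HDAC3 is best known from another complex, that of NCoR and SMRT.

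Library totals ran from 12935443 to 16451017 counts, and 3 counts, the limit that a count of 0 allows, corresponded to 0.182 to 0.232 CPM (counts scaled by the adjusted library total). Intervals and floors of this kind cover counting error only. The median log2 fold change of the 13484 genes tested was -0.00. In edgeR's quasi-likelihood test, 1543 genes were higher and 1602 lower (49.1% of the calls higher), against 1838 and 1270 (59.1% higher) with upper-quartile factors. Hdac3 itself measured 89.1 ± 3.83 CPM (SD, n = 3) in vehicle and 85.9 ± 2.49 CPM in RGFP966 libraries (log2 fold change -0.05 ± 0.05 SE, edgeR adjusted p = 0.482). The drug acts on the protein, so this level does not check the labels. T cell markers were present, with Thy1 at 894, Cd3d at 194 and Cd3e at 50.7 CPM in vehicle, and their sum over 14 genes ran from 2402 to 2429 CPM in vehicle and from 2371 to 2441 CPM in RGFP966 libraries (p = 0.8 in an exact two-sided permutation test, n = 3, where 0.1 is the smallest p that can be had). That sum holds opposing changes. In edgeR 4 of the 13 tested markers were higher, among them the surface protein genes Cd5 (log2 fold change 0.28, adjusted p = 3.29e-06) and Cd2 (0.56). Another 4 were lower, among them Lat, a signalling adaptor gene (-0.22, adjusted p = 5.80e-06), and Bcl11b (-0.18). Of all tested genes 23.3% were called in either direction.

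All 8 genes passed the filter on low counts. In the fit across all genes, 3 of them (Rcor2, Kdm1a and Syt11) were called higher and 2 (Elavl4 and Magi2) lower, a total of 5 beside a background of 23.3% of all tested genes called in either direction. The CPM of the groups did not overlap in 6 of the 8, the same 5 and Rcor3, where 36.3% of all tested genes did not overlap. Because this contrast chose the genes, nothing is read from these shares.

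Rest, the gene of the DNA-binding repressor, lies on chromosome 5 from 77265491 to 77286432 on the plus strand (GRCm38, the assembly of mm10). Its level was 54.5, 52.5 and 52.9 CPM in vehicle libraries 1 to 3 and 51.7, 53.7 and 51.3 CPM in RGFP966 libraries 1 to 3. The groups overlapped, and the log2 fold change was -0.03 ± 0.06 (SE). Rcor1, the gene of the first described CoREST scaffold (chromosome 12, 111039351 to 111115901, plus strand), measured 88.8, 85.4 and 88.1 CPM in vehicle and 90.4, 87.7 and 87.5 CPM in RGFP966 libraries. These groups overlapped too, at a log2 fold change of 0.02 ± 0.05. Rest and Rcor1 thus had the smallest differences of the 8 genes.

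The other 2 scaffold genes differed in opposite directions. Rcor2 (chromosome 19, 7267325 to 7275225, plus strand), whose product is a CoREST form studied mostly in neural progenitors and stem cells, measured 16.4, 13.4 and 14.2 CPM in vehicle and 20.1, 21.3 and 19.9 CPM in RGFP966 libraries. Every RGFP966 library lay above every vehicle library, with a log2 fold change of 0.48 ± 0.10, which is 39.4% higher. Rcor3, the third CoREST gene (chromosome 1, 192098546 to 192138062, minus strand), measured 5.93, 6.43 and 6.97 CPM in vehicle and 5.14, 5.82 and 5.70 CPM in RGFP966 libraries. All 3 RGFP966 libraries were lower, the log2 fold change was -0.22 ± 0.16 and was not called, and the counts behind it were 70 to 109 per library. Of Rcor3's exonic bases 8.34% are overlapped by Gm26879 on the opposite strand, and no source used here gives the strand setting of the counting.

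Kdm1a, the gene of the demethylase LSD1 (chromosome 4, 136550540 to 136602723, minus strand), measured 119, 113 and 111 CPM in vehicle and 131, 129 and 128 CPM in RGFP966 libraries. The groups stood apart, and the difference was small, at a log2 fold change of 0.18 ± 0.04.

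Syt11, Elavl4 and Magi2 showed the largest differences of the 8 genes. Syt11 encodes a synaptotagmin of vesicle membranes that lacks the calcium binding of its better known relatives, and lies on chromosome 3 from 88744700 to 88775164 on the minus strand. It measured 6.39, 8.69 and 8.19 CPM in vehicle and 17.3, 18.7 and 17.02 CPM in RGFP966 libraries. Vehicle library 1 was the lowest, and every RGFP966 library lay well above the highest vehicle library. The log2 fold change was 1.18 ± 0.12, or 2.27-fold. Of its 50-base exonic words 5.92% also occur in other genes, most in 1500004A13Rik.

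Elavl4 encodes HuD, a neuronal protein that binds AU-rich elements in messenger RNA (chromosome 4, 110203722 to 110351909, minus strand). It measured 15.3, 14.1 and 13.05 CPM in vehicle and 8.23, 8.14 and 9.05 CPM with RGFP966, for a log2 fold change of -0.73 ± 0.12. Magi2 encodes a scaffold protein of synapses and is spread over chromosome 5 from 19227036 to 20704792 on the plus strand. It measured 12.1, 12.4 and 13.2 CPM in vehicle and 7.94, 7.52 and 7.24 CPM with RGFP966, also for a log2 fold change of -0.73 ± 0.12. In both genes every RGFP966 library lay below every vehicle library.

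**Figure D1:**
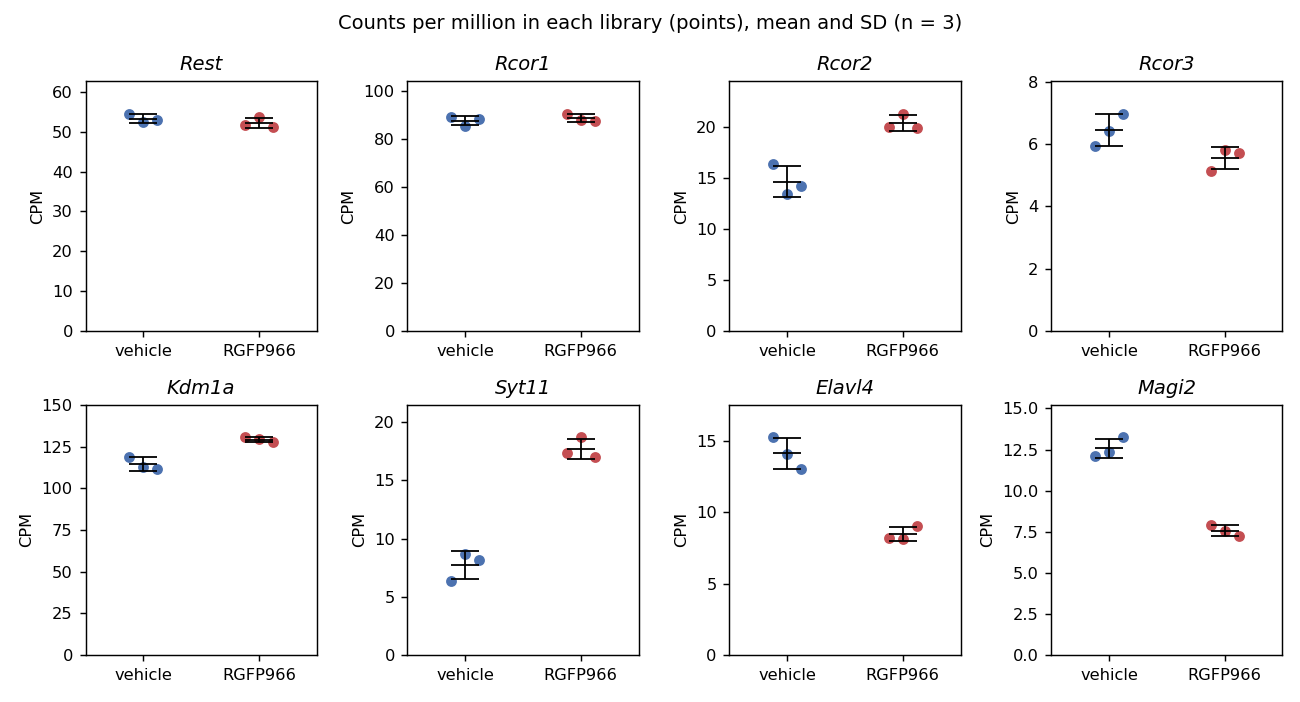
Level of each of the 8 genes in CPM (vertical axes, each starting at 0) in the 3 vehicle and 3 RGFP966 libraries (points), with the mean and SD as bars. Rest and Rcor1 overlap between groups, Rcor2, Kdm1a and Syt11 stand higher with RGFP966, and Rcor3, Elavl4 and Magi2 stand lower.

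Levels can be compared between genes only per length, here as CPM per kilobase of exonic length. In vehicle, Kdm1a stood highest at 22.1 ± 0.789 CPM per kb (SD, n = 3), above 79.8% of the tested genes. Rcor1 followed at 15.4 ± 0.323 and Rest at 7.38 ± 0.149 CPM per kb, a level above 51.9% of the tested genes. Rcor2 had 4.64 ± 0.485, Elavl4 2.62 ± 0.205, Syt11 1.49 ± 0.233, Magi2 1.11 ± 0.0515 and Rcor3 0.473 ± 0.0381 CPM per kb. The repressor genes other than Rcor3 thus stood above the 3 neuronal genes. No neighbours in this order overlapped in their 3 libraries, in either group. With RGFP966 the order was the same except that Syt11, at 3.40 ± 0.170 CPM per kb, stood above Elavl4, at 1.57 ± 0.0925.

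Within the CoREST scaffolds, Rcor1 made up 75.1% ± 1.34 (SD, n = 3) of the summed CPM per kb of the 3 Rcor genes in vehicle and 69.4% ± 1.03 in RGFP966 libraries. Rcor2 made up 22.6% ± 1.56 and 28.8% ± 0.940, and Rcor3 2.31% ± 0.232 and 1.82% ± 0.128. Kdm1a stood at 1.44 ± 0.0437 times the Rcor1 level per length in vehicle and at 1.60 ± 0.0166 times in RGFP966 libraries. The same ratio for Rest was 0.480 ± 0.00644 and 0.464 ± 0.0165. Annotated exonic length includes isoforms that EL4 cells may not use, so these ratios are approximate.

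**Figure D2:**
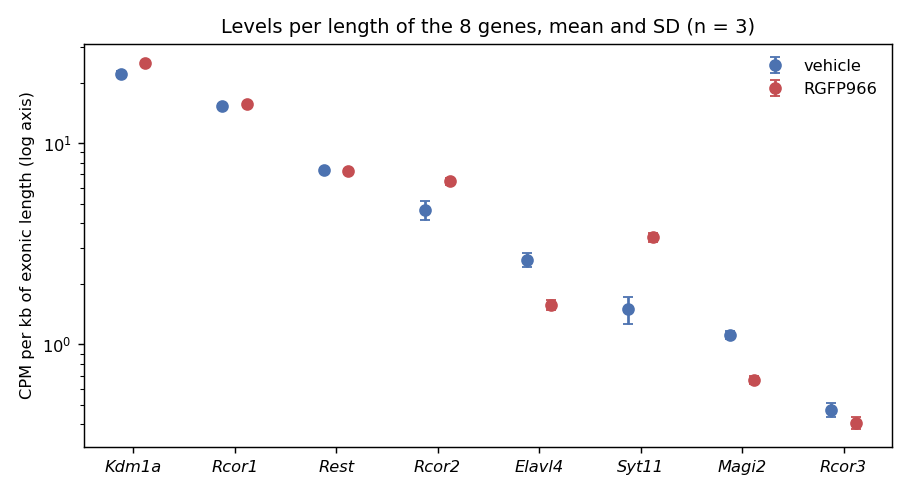
Mean level of the 8 genes in CPM per kb of exonic length (log axis) in vehicle and RGFP966 libraries, with the SD of 3 libraries as bars, ordered by the vehicle level. Kdm1a is highest at 22.1 and Rcor3 lowest at 0.473 CPM per kb in vehicle, and Syt11 and Elavl4 change places with RGFP966.

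The DNA just before the RefSeq start of Rcor2 and the 3 neuronal genes is shown because these 4 had the largest differences. Sequences are from RefSeq on GRCm38.p6, which had windows for 7 of the 8 genes (11 windows in all; Rest had none), reaching from 250 bases before to 50 after a start. The 250 bases before the first listed start are printed 5′ to 3′ on the strand of the gene, and capitals mark GGACAG, the right arm of the RE1 core, on either strand (CTGTCC where it lies on the opposite strand).
Rcor2 (chr19:7267144-7267393, plus strand): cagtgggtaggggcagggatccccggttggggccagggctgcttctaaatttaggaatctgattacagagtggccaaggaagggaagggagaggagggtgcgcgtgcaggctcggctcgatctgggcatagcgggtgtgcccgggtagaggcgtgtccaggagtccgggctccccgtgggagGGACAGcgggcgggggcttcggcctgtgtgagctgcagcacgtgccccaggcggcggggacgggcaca
Syt11 (chr3:88772600-88772849, minus strand): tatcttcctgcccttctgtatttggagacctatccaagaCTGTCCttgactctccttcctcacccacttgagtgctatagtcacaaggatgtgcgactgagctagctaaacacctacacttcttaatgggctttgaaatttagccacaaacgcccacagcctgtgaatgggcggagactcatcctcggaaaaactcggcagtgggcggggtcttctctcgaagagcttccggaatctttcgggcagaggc
Elavl4 (chr4:110351912-110352161, minus strand): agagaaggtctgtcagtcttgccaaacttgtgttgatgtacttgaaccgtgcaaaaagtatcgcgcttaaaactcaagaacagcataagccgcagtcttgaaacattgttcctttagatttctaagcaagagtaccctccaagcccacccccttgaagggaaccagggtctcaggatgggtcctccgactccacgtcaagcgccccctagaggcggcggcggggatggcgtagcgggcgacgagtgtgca
Magi2 (chr5:19226796-19227045, plus strand): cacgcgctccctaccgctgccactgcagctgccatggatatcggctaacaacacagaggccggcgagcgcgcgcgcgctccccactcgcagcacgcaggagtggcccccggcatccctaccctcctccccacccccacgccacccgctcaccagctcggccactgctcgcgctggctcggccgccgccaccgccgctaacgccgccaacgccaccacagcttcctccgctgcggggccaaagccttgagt
GGACAG began at base -68 in Rcor2 and at base -211 on the opposite strand in Syt11, and at base 11 after the start in Magi2, outside the stretch printed. It occurs on either strand in 22.2% of all 32851 windows of this length. AGCACC, the left arm, occurs in 16.2% of them. Among the members only 2 of the 4 windows of Elavl4 held it. These windows overlap, and the arm is the same stretch of DNA in both, at base -102 or -118 counted from 2 later starts. The whole core, AGCACC and GGACAG with 2 bases between them, had no match in any of the 11 windows, also when 1 of its 12 fixed bases was allowed to differ. A match is a description of these letters, and no match says only that they are not in this window. The GENCODE model of Syt11 reaches to 88775164, so its RefSeq window lies inside that gene model. Those of Rcor2 and Magi2 begin at 7267325 and 19227036, so the end of each printed stretch, with the marked bases of Rcor2, also lies inside the GENCODE gene.

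The exact core was rare. It was found in 17 of the 32851 windows (0.0517%), and 14 genes of these windows matched the counts. The sites in 4 of them, picked as examples by no stated rule, are printed, with the fixed bases of both arms in capitals. Pip, Lca5, Osbp2 and Fbll1 also had the core, with 0 counts in all 6 libraries, and are not printed. Whether the core bears on these counts was not tested.
Gria2 (chr3:80802989-80803009, plus strand): tttAGCACCgcGGACAGcgct
Gad2 (chr2:22622161-22622181, plus strand): ggtAGCACCctGGACAGcgcg
Lhx3 (chr2:26208272-26208292, minus strand): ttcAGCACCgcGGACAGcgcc
Sptbn4 (chr7:27396280-27396300, plus strand): tccAGCACCacGGACAGttcc
Gria2, a glutamate receptor subunit gene, and Gad2, which makes the transmitter GABA, had 0 counts in all 6 libraries. Lhx3, a transcription factor gene of motor neurons and pituitary, had 2 counts in each vehicle library and 5, 2 and 5 in RGFP966 libraries, too few to test. Of the 14 genes 6 had 0 counts in all libraries, beside 6607 of the 20177 genes matched to any window (32.7%). Only 1 of the 14 was tested, beside 9356 of those 20177 (46.4%). That 1 gene, Sptbn4, a spectrin of axons, measured 26.7, 27.2 and 25.1 CPM in vehicle and 28.8, 20.6 and 27.6 CPM in RGFP966 libraries. Its groups overlapped (log2 fold change -0.03 ± 0.09 SE, edgeR adjusted p = 0.846).

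The gene lists here and below were set by function, with earlier results of these data known. Their counts of calls are therefore given as a description. Among 66 textbook REST target genes, 26 had 0 counts in all 6 libraries and 46 were not tested because of low counts. The summed level of those 46 was 1.54 to 3.55 CPM in vehicle and 2.95 to 4.22 CPM in RGFP966 libraries, so the ranges overlapped. Of the 20 tested, 4 rose and 2 fell in edgeR's quasi-likelihood test, with 14 not called, beside 23.3% called among all genes, and the median log2 fold change was 0.05. The balance was not stable: 2 were higher and 4 lower without vehicle library 2, 2 higher and 1 lower without vehicle library 3, RGFP966 library 1 or RGFP966 library 3, and 2 higher and 2 lower with DESeq2 and with limma-voom. Tubb3, a neuronal tubulin gene, rose from 38.6, 39.9 and 37.2 CPM to 59.2, 54.8 and 53.8 CPM (log2 fold change 0.53 ± 0.06 SE, edgeR adjusted p = 2.19e-09). Its groups stood apart.

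Other calls in this list, those of Nefh, Scn2a and L1cam, depended on single libraries. Nefh, a neurofilament gene, fell from 208 ± 8.62 to 188 ± 7.41 CPM (SD, n = 3; log2 fold change -0.15, edgeR adjusted p = 5.04e-03, but 0.0898 without RGFP966 library 3). Scn2a, a sodium channel gene with 5.76% of its words shared, most with Scn3a, fell from 24.3, 25.9 and 26.9 CPM to 16.3, 20.4 and 24.1 CPM (log2 fold change -0.34, edgeR adjusted p = 8.42e-03). It was not called without vehicle library 3 (-0.30, adjusted p = 0.0510) or RGFP966 library 1 (-0.21, adjusted p = 0.138). L1cam, a neural adhesion gene, had a log2 fold change of 0.40 (edgeR adjusted p = 0.0476) with groups that overlapped. Its call was lost on leaving out vehicle library 2 (adjusted p = 0.1396), vehicle library 3 (0.181), RGFP966 library 1 (0.146) or RGFP966 library 3 (0.314, at 0.26), and with DESeq2 (0.133) and limma-voom (0.0781).

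**Figure D3:**
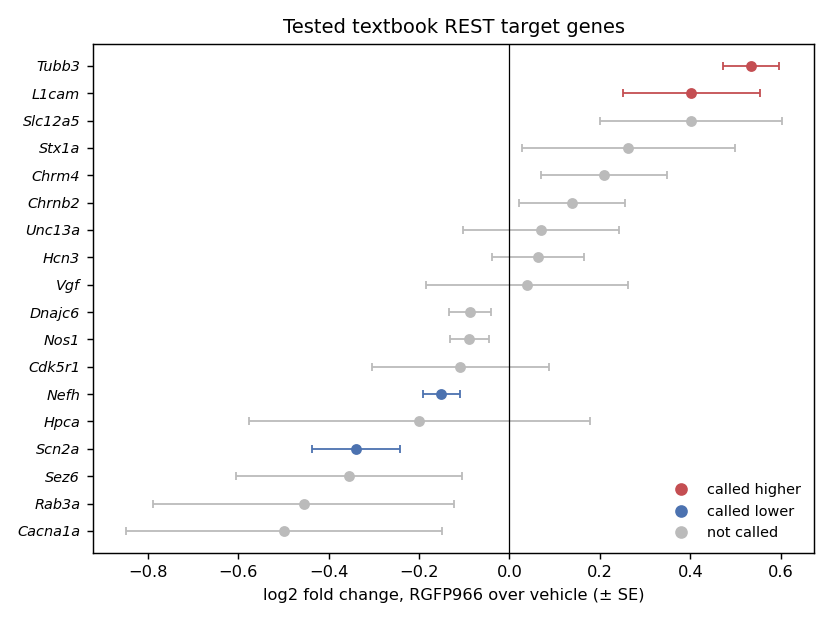
Log2 fold change (horizontal axis, RGFP966 over vehicle, with SE) of tested textbook REST target genes. Tubb3 and L1cam were called higher in edgeR (red) and Nefh and Scn2a lower (blue), and genes that were not called (grey) lie on both sides of 0.

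Most markers of neurons were at or near 0. Of 14, 7 had 0 counts in all 6 libraries, namely Snap25, Stmn2, Gap43, Rbfox3, Nefl, Nefm and Gad2, and Dcx had 1 count in all. Their summed level was 51.4 to 54.7 CPM in vehicle and 65.1 to 69.0 CPM in RGFP966 libraries (exact two-sided permutation test, n = 3, p = 0.1). That sum was nearly all Tubb3 and Map2, which went opposite ways. Map2, a microtubule protein gene of dendrites, fell from 14.3 to 9.84 CPM (edgeR adjusted p = 3.13e-04). The extraction text of the labels speaks of retinas, and of 14 retina markers Crx, Rpe65, Gnat1 and Opn1mw had 0 counts in all libraries. Of the 2 tested, Gnat2, a transducin gene of cones, rose from 1.72 to 2.98 CPM (edgeR adjusted p = 0.0247) and Pde6b measured 2.86 and 2.30 CPM (0.3997). The retina sum was 4.78 to 6.52 CPM in vehicle and 6.47 to 7.24 CPM in RGFP966 libraries (exact two-sided permutation test, n = 3, p = 0.2). In bulk RNA, fewer cells with a transcript and less of it per cell cannot be told apart. Sums of the other marker lists were 91.3 to 107 CPM in vehicle and 95.9 to 98.0 CPM in RGFP966 libraries for glia (91.7 CPM of it Mbp in vehicle) and 531 to 554 and 497 to 505 CPM for B cells (nearly all Ighm). They were 12.3 to 13.8 and 12.5 to 12.95 CPM for myeloid cells and 44.3 to 45.5 and 54.8 to 57.4 CPM for fibroblasts (nearly all Pdgfra). The exact two-sided permutation test (n = 3) gave p = 0.1 for B cells and for fibroblasts, 0.7 for glia and 0.6 for myeloid cells. In edgeR Pdgfra was called higher (adjusted p = 2.10e-04). Ighm and the glia marker Aldh1l1 were called lower (adjusted p = 0.0150 and 8.61e-03), and Mbp was not called (0.991). The part of these sums in the differences of the 8 genes was not tested.

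Among 35 other genes listed as partners of REST and CoREST, 30 were tested, of which 5 rose and 5 fell in edgeR's quasi-likelihood test. Rilp is in this list by its name, although the gene encodes a lysosomal protein and not a REST partner. It was tested and not called. The median log2 fold change of the 30 was -0.02, beside -0.00 for all genes, and the 10 calls compare with 23.3% called among all genes. Leaving out 1 library gave 3 to 5 higher and 4 to 7 lower, with 3 and 5 without RGFP966 library 2 and 5 and 7 without vehicle library 2. Zfp217, a zinc finger gene whose product binds CoREST and CtBP, rose from 69.6, 74.6 and 70.6 CPM to 101, 98.5 and 105 CPM (log2 fold change 0.50 ± 0.05 SE, edgeR adjusted p = 2.01e-11). Phf21a, the gene of BHC80, the CoREST complex subunit that reads unmethylated histone H3 tails, rose from 33.1, 36.5 and 36.5 CPM to 49.2, 48.5 and 49.2 CPM (0.47 ± 0.06, edgeR adjusted p = 1.37e-07). Both groups of libraries stood apart in each of these genes. Zfp516, another zinc finger gene of CoREST complexes, rose from 18.7 ± 0.280 to 23.3 ± 0.719 CPM (SD, n = 3; edgeR adjusted p = 4.51e-03).

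The deacetylases of the complex differed little. Hdac1 had a log2 fold change of 0.13 (edgeR adjusted p = 0.0103), which was lost without vehicle library 1 (0.11, adjusted p = 0.0686) or RGFP966 library 2 (0.10, adjusted p = 0.117), and 35.5% of its 50-base words occur in other genes, most in Gm10093. Hdac2 measured -0.01 ± 0.04 (edgeR adjusted p = 0.886), with a sign that turned under other scalings. Hmg20b, which encodes a DNA-binding subunit of the complex and was chosen after its values were seen, measured -0.06 (edgeR adjusted p = 0.593).

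Of the 5 partners that fell, 4 encode SIN3 scaffolds or phosphatases. Ctdsp1 and Ctdsp2 encode small C-terminal domain phosphatases that act with REST. Ctdsp1 fell from 85.2, 89.5 and 87.4 CPM to 69.2, 72.05 and 70.6 CPM (log2 fold change -0.31 ± 0.05 SE, edgeR adjusted p = 3.75e-06), with 7.24% of its words shared, most with Gm31544. Ctdsp2 fell from 45.9 ± 3.91 to 37.9 ± 2.45 CPM (SD, n = 3; -0.28 ± 0.07, edgeR adjusted p = 1.64e-03), with 12.5% of its words shared with other genes, most with Gm9770. Sin3b and Sin3a, the scaffold genes of the other REST corepressor, fell from 90.6 to 78.2 CPM (-0.21, edgeR adjusted p = 1.06e-03) and from 106 to 93.3 CPM (-0.18, edgeR adjusted p = 3.28e-03). The call of Sin3a was lost without RGFP966 library 3 (-0.13, adjusted p = 0.0780). The remaining rise and fall, outside the naming rule and chosen after their values were seen, were Prickle1 at 0.11 and Ctbp1 at -0.14 (edgeR adjusted p = 0.0148 and 5.69e-03).

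**Figure D4:**
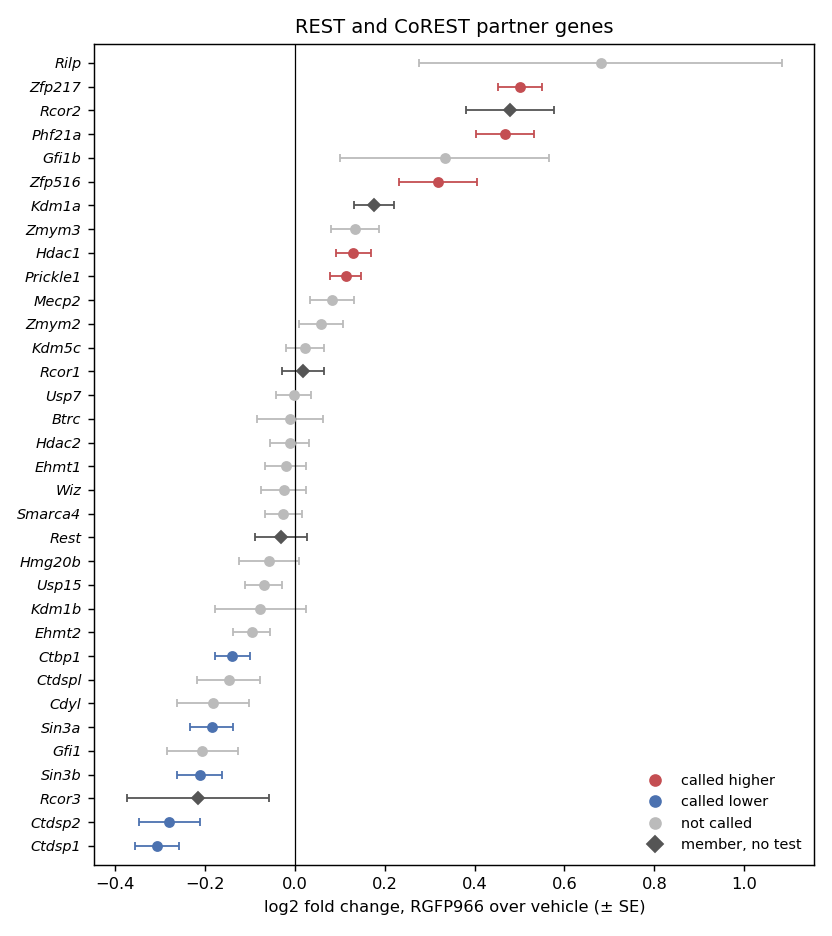
Log2 fold change (horizontal axis, RGFP966 over vehicle, with SE) of tested genes of the partner list and of Rest, Rcor1, Rcor2, Rcor3 and Kdm1a (dark diamonds, no test). Rilp, in the list by its name, is not a REST partner. In edgeR, 5 partners were called higher (red) and 5 lower (blue), and the others were not called (grey).

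Relatives of the 3 neuronal genes did not share one direction. Of 16 other synaptotagmin genes 7 had 0 counts in all 6 libraries, and 4 were tested. Of those 4, 1 was called higher and 1 lower, beside 23.3% called among all genes. Syt3 had 9.13, 10.2 and 9.08 CPM in vehicle and 10.7, 12.8 and 12.9 CPM in RGFP966 libraries (log2 fold change 0.36, edgeR adjusted p = 0.0239). Its call was lost on leaving out vehicle library 1 (adjusted p = 0.0711), vehicle library 3 (0.0732), RGFP966 library 2 (0.0861) or RGFP966 library 3 (0.108), and with DESeq2 (0.0705). Syt13, at 24.9 CPM per kb the highest of the tested synaptotagmins in vehicle, measured 93.5 ± 3.66 and 85.1 ± 3.64 CPM (SD, n = 3; -0.13, edgeR adjusted p = 0.0405). Its call was lost in 10 of the alternatives, among them upper-quartile factors (adjusted p = 0.1004), the DESeq2 Wald test (0.116), and leaving out vehicle library 1 or 3 (0.223 and 0.0713) or RGFP966 library 1 or 2 (0.152 and 0.141). Syt2 and Syt5, the fast calcium sensors of nerve terminals or their near relatives, stayed below 1 CPM on average (edgeR adjusted p = 0.843 and 0.927).

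Of the other ELAV-like genes, the ubiquitous Elavl1 measured 142 ± 4.70 and 143 ± 3.93 CPM (SD, n = 3; log2 fold change 0.01 ± 0.04, edgeR adjusted p = 0.911). Elavl3 had 12 to 14 counts per vehicle library and 20, 3 and 20 in RGFP966 libraries (edgeR adjusted p = 0.647), and Elavl2 had 0 counts in all 6. In edgeR 0 of the 2 tested were called (0 at an unadjusted p under 0.05), beside 23.3% called among all genes. Each other setting, DESeq2 and limma-voom included, called 0 of them too.

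Among 19 other MAGI and membrane guanylate kinase genes, 12 were tested, of which 4 rose and 1 fell, with a median log2 fold change of 0.12. These calls are 41.7% of the 12, beside 23.3% called among all genes. Magi1, a close relative of Magi2 that sits at cell junctions, rose from 25.5, 24.98 and 26.7 CPM to 36.6, 37.8 and 36.1 CPM (0.52 ± 0.07 SE, edgeR adjusted p = 2.29e-07). Tjp3, a tight junction scaffold gene, fell from 55.04, 58.7 and 58.8 CPM to 41.7, 40.2 and 39.9 CPM (-0.50 ± 0.06, edgeR adjusted p = 5.32e-09). The groups stood apart in both. Mpp2 and Mpp4 rose by 0.30 and 0.12 (edgeR adjusted p = 4.20e-03 and 0.0151), but without RGFP966 library 3 their adjusted p was 0.0672 and 0.0899, and 3 genes of the list were called in place of 5. Of Mpp4's exons 13.8% are overlapped by G730003C15Rik on the other strand.

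Among 25 other splicing and RNA-binding genes known from neurons, 16 were tested, of which 2 rose and 3 fell (median log2 fold change 0.04), beside 23.3% called among all genes. This balance turned to 4 higher and 1 lower without vehicle library 3, 3 and 1 without RGFP966 library 1, 4 and 2 without RGFP966 library 2 and 4 and 2 with upper-quartile factors. DESeq2 and limma-voom each gave 3 higher and 2 lower. Msi1, a Musashi RNA-binding gene of neural stem cells, rose from 0.848, 1.41 and 0.959 CPM to 2.50, 2.17 and 3.15 CPM, on 13 to 47 counts per library (1.28 ± 0.30 SE, edgeR adjusted p = 1.16e-03). Msi2, its relative in blood cells, fell from 158 ± 0.999 to 132 ± 2.48 CPM (SD, n = 3; -0.25 ± 0.04, edgeR adjusted p = 4.59e-06). Rbfox2, a splicing factor gene, rose from 23.2, 18.7 and 22.8 CPM to 29.3, 27.1 and 28.7 CPM (0.40 ± 0.08, edgeR adjusted p = 3.06e-04). Ptbp3 and Mbnl3 had log2 fold changes of -0.13 and -0.16 (edgeR adjusted p = 9.91e-03 and 0.0282). The call of Ptbp3 was lost without vehicle library 3 or RGFP966 library 1 (adjusted p = 0.0629 and 0.109). That of Mbnl3, whose groups overlapped, was lost without vehicle library 3 (-0.09, adjusted p = 0.329), RGFP966 library 1 (0.115) or RGFP966 library 2 (0.111), with DESeq2 (0.105), limma-voom (0.0516), upper-quartile factors (0.0695) and total count alone (0.0527).

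Among 39 matched genes of vesicle docking and exocytosis, the process in which synaptotagmins act, 22 were tested, of which 4 rose and 3 fell (median log2 fold change 0.01). These calls are 31.8% of the 22, beside 23.3% called among all genes. Sv2a, a synaptic vesicle glycoprotein gene, rose from 18.5, 15.3 and 14.3 CPM to 22.0, 24.6 and 22.6 CPM (0.53 ± 0.10 SE, edgeR adjusted p = 3.19e-05). Snap29, a membrane fusion gene, rose by 0.33 (edgeR adjusted p = 1.03e-03). Unc13d, whose product primes cytotoxic granules in lymphocytes, fell from 56.3, 57.6 and 57.7 CPM to 48.9, 47.5 and 45.1 CPM (-0.28 ± 0.06, edgeR adjusted p = 2.47e-04). Stx11, a syntaxin gene of lymphocyte granules, had a log2 fold change of 0.24 (edgeR adjusted p = 0.0182), which was lost without vehicle library 2 or RGFP966 library 2 (adjusted p = 0.0701 and 0.0773) and with DESeq2 (0.0522). Vamp3 had one of -0.14 (edgeR adjusted p = 0.0139), lost without vehicle library 2 or RGFP966 library 1 or 3 (adjusted p = 0.0519, 0.124 and 0.0681).

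The genes most like 4 of the members in pattern were found by the root mean square difference of centred log2 CPM over the 6 libraries, among 9339 genes of at least 5 CPM. Nearest to Rest were Bag4 (0.00835) and Ddx42 (0.0119), both nearly level across the libraries. Nearest to Syt11 were Tmsb4x (0.113), from 11.5 ± 2.04 to 24.98 ± 1.004 CPM (SD, n = 3), and Scel (0.129), from 15.9 ± 0.864 to 35.8 ± 2.76 CPM. Nearest to Elavl4 were Slc39a10 (0.0769), from 46.3 to 29.4 CPM, and Mxd4 (0.0848), from 19.3 to 12.6 CPM. Nearest to Magi2 were Angptl2 (0.0562), from 42.7 to 27.2 CPM, and Tfeb (0.0573), from 41.3 to 25.6 CPM.

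In the 14 other settings of the fit (the replicate block, 3 scalings, 2 filters, 2 other tests and 6 fits with 1 library left out), the same 5 members were called and the other 3 were not. The log2 fold change of Syt11 ran from 1.07 to 1.27, that of Elavl4 from -0.78 to -0.67, that of Magi2 from -0.77 to -0.69 and that of Rcor2 from 0.42 to 0.57. That of Kdm1a ran from 0.16 to 0.21, that of Rcor3 from -0.27 to -0.15, that of Rest from -0.05 to -0.01 and that of Rcor1 from -0.00 to 0.04. Within each gene these ranges reflect the same 6 libraries.

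**Figure D5:**
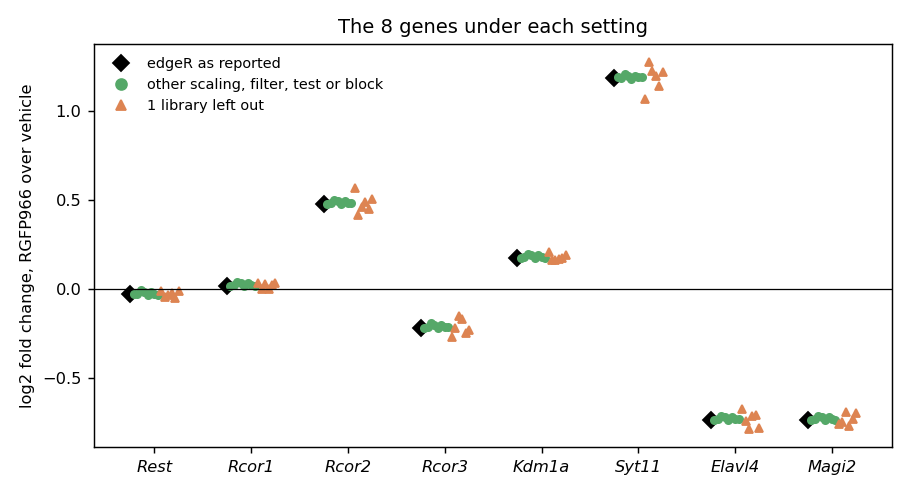
Log2 fold change (vertical axis, RGFP966 over vehicle) of the 8 genes as reported (black diamonds), under other scalings, filters, tests or the replicate block (green) and with 1 library left out (orange). Syt11 stays between 1.07 and 1.27 and Elavl4 between -0.78 and -0.67.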

How the data were processed

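The authors deposited raw counts per gene, 1 column per library, as whole numbers. The submitters' processing notes list HTSeq 0.6.0, HISAT2 2.1.0, Bowtie2 2.2.3, TopHat2, CASAVA and the build mm10 without saying which did what. For annotation release and strand setting: not given in the sources used here. Symbols matched 51633 of 51912 IDs. Positions, exonic lengths and shared 50-base words were taken from GENCODE M21 (GRCm38), and promoter windows from RefSeq. Counts were fitted in edgeR 4.0.16 (R 4.3.3) with group as the only term, filterByExpr, TMM scaling and the robust form of the quasi-likelihood F test. All 13484 tested genes entered the Benjamini-Hochberg adjustment, with calls at adjusted values under 0.05. CPM use the scaled library totals. SE was derived as |log2 fold change| divided by the root of F. Alternatives were a block for the replicate number, 3 scalings, 2 filters, DESeq2 1.42.0, limma-voom 3.58.1 and leaving out each library. The scripts' fits were tested on simulated data.

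The lists were set by function, and both they and the members were chosen with earlier results of these data known. Genes named were the members, Hdac1, Hdac2 and Hdac3, up to 4 called genes of smallest adjusted p per direction and list, all tested genes of lists with under 5 tested, and the 2 nearest genes in pattern to Rest, Syt11, Elavl4 and Magi2. Some genes of the lists are not reported here, and the figures leave them out. No genome sequence was used, so the RE1 core was searched in promoter windows in place of the 5 kb around each start, and the window of 1 kb was not run. Libraries of a group had pairwise chi-square values of 2.22 to 3.53 per degree of freedom, above counting noise, and were kept as separate libraries.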

Additional observations from a re-analysis of the deposited data

How the results depend on the processing

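With the replicate block 3431 genes were called in place of 3145, and 5 members, the same as without it. The labels share only a number between groups: same-numbered libraries had correlations of deviations of -0.02, 0.01 and 0.01, and not every library correlated best with its own number. Across the alternatives 2265 to 3431 genes were called. Of 542 values of the 39 other named genes under the alternatives, 475 kept their direction and call, 52 kept the direction and lost the call, and 15 turned in sign, all of them in genes that were not called.

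Calls in the synaptotagmin list went from 2 to 1 with upper-quartile factors, 1 with total count alone, 1 with no filter, 1 at a minimum mean of 5 CPM and 1 with limma-voom, and to 0 with the DESeq2 Wald test, and leaving out 1 library gave 0 to 2. The count of called REST targets was 3 to 6, and that of MAGI and related genes 3 to 6, with 1 library left out. No gene with the exact RE1 core in its window was called by edgeR (0 of 1 tested, also 0 at an unadjusted p under 0.05). DESeq2 and limma-voom called 0 as well. With 1 mismatch allowed 8 of 27 were called (29.6%, 6 higher and 2 lower), at a median log2 fold change of -0.01. With the exact core anywhere in an annotated transcript, a setting chosen after seeing the data, 4 of 31 were called (12.9%, 2 higher and 2 lower, median -0.01). Among all tested genes 23.3% were called. The T cell marker sum differed by -9.88 CPM, by 14.1 CPM with total count alone and 29.1 CPM with upper-quartile factors, and by -28.7 to 6.38 CPM with 1 library left out. For glia these limits were -7.20 to 0.881 CPM and for myeloid cells -0.640 to 0.0735 CPM.

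The log2 fold change of Hdac2 was 0.0118 with upper-quartile factors, 0.00286 with total count alone and 0.00352 at a minimum mean of 5 CPM, and -0.0562 to 0.0140 with 1 library left out. That of Syt5 was -0.11 and that of Elavl3 -0.0136 with limma-voom. With 1 library left out, Syt2 ran from -0.23 to 0.51, Syt5 from -0.55 to 0.41, Elavl1 from -0.00645 to 0.0388, Elavl3 from -0.0149 to 0.76 and Sptbn4 from -0.12 to 0.10. The causes were not tested. Rcor3 (70 to 109 counts per library) has the fewest reads of the members. Syt2, Syt5, Elavl3 and Msi1 (3 to 47 counts) and the retina markers Gnat2 (18 to 45) and Pde6b (26 to 53) have fewer. Small differences in genes with so few counts may be missed, and the smallest detectable difference was not tested. Of these genes Msi1 and Gnat2 were called.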
